A study of Rattus norvegicus with 2 samples.

Results

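ATP-sensitive potassium (KATP) channels were examined through the 4 genes that encode their subunits, Abcc9, Kcnj8, Abcc8 and Kcnj11, out of 17327 genes in the authors' deposited table. They were found by their symbols, and all 4 have a row. The set was chosen by symbol, but selected on reads already seen: Abcc9 and Kcnj8 were known to differ strongly between the libraries, so their ratios describe these libraries and support nothing further. The study compared cultured rat myometrial progenitor cells, which can form uterine smooth muscle, from animals labelled DES-exposed with the same cells from animals labelled VEH-exposed. In work on developmental exposure DES usually stands for the synthetic estrogen diethylstilbestrol and VEH for its vehicle. Each group was 1 library, made from cells pooled over 5 animals and kept for passages 1 to 3. The sources used here give no strain, dose, time of exposure or age.

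The table holds the mean of both libraries and a log2 fold change, and the reads of each library were recovered from the means. Which group stands above the fraction line of that fold change is stated in neither the table nor the labels. The library whose reads raise the fold change is called the numerator library here and its reads numerator reads, the other the denominator library, and a lower level in 1 of them cannot be assigned to DES or VEH. All listed genes together had 106599579 numerator and 104793348 denominator reads. With 1 library per group no difference has a replicate check, and the 95% intervals cover counting error only. Smooth muscle markers were abundant in both libraries: Acta2, smooth muscle actin, had 447541 numerator and 279748 denominator reads, and Myh11, smooth muscle myosin, had 222372 and 135751. All 13 smooth muscle markers had a mean of at least 20 normalised reads, with a median log2 ratio of 0.64. Over all genes with such a mean, 13.9% were higher by 2-fold or more in the numerator library and 12.7% lower. Of the 13 markers, 2 were higher (15.4%) and 1 lower (7.69%). These were Tagln (2.57-fold higher), Actg2 (2.11-fold higher) and Mylk, the kinase of myosin light chain (4.05-fold lower).

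KATP channels join a potassium-selective pore to a sulfonylurea receptor, a regulatory protein of the ABC transporter family. ATP closes the channel, nucleotide diphosphates open it through the receptor, and an open channel holds the membrane at a negative voltage, which keeps voltage-gated calcium channels shut. Kcnj8 encodes the pore Kir6.1 and Abcc9 the receptor SUR2, the usual pair of smooth muscle and pericytes. Kcnj11 encodes the pore Kir6.2 and Abcc8 the receptor SUR1, the pair known from insulin-secreting cells and neurons. In the myometrium, opening of these channels quiets contraction. The genes of each pair lie next to each other in the genome, Kcnj8 beside Abcc9 on chromosome 4 and Kcnj11 beside Abcc8 on chromosome 1 in RefSeq's GRCr8 annotation.

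The promoters of Abcc9 and Kcnj8 are shown because these neighbours were both read in large numbers in the same library and hardly at all in the other. Of the 4 genes, these 2 matched an entry in RefSeq's GRCr8 promoter table. Each line holds the 250 bases before the gene's start, 5′ to 3′ on the minus strand, at chr4:177386349-177386598 for Abcc9 and chr4:177246549-177246798 for Kcnj8. Capitals mark the GC box GGGCGG, which lies on the opposite strand in both and is printed as its reverse complement.
Abcc9: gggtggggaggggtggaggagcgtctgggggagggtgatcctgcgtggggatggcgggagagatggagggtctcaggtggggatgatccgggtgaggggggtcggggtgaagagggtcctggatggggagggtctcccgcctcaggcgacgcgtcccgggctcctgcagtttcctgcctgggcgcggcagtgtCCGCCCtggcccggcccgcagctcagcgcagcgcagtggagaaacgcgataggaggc
Kcnj8: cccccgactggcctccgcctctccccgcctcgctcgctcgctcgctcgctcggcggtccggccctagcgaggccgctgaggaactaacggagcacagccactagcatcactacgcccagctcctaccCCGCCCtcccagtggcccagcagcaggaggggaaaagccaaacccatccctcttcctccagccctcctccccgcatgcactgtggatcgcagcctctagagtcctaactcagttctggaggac

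Both stretches were rich in G and C. The Abcc9 stretch had a G and C content of 71.2% with 19 CpG sites and the Kcnj8 stretch 66.8% with 18, against medians of 51.2% and 5 over 33469 RefSeq promoters. Of these promoters, 93.1% had a lower G and C content than Abcc9 and 87.4% a lower one than Kcnj8. Both held 1 GC box, as 30.5% of promoters held at least 1. Letters searched on both strands without a match in either stretch were the TATA box TATAAA (in 12.9% of promoters), CCAAT (34%), the E-box form CAGCTG (12%), the MCAT element CATTCC (12.1%), the CArG box (1.5%) and the estrogen receptor hexamer AGGTCA (14.1%). Other E-box forms were not searched, and the Abcc9 stretch holds the form CAGGTG. A missing match says only that the letters are not in these windows.

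Abcc9, the receptor SUR2, had 38 numerator and 168646 denominator reads. As CPM, counts per 1e6 reads in listed genes, these are 0.356 (interval 0.252 to 0.489) in the numerator and 1609 (interval 1602 to 1617) in the denominator library. The normalised level was 4519-fold lower in the numerator library (interval 3292 to 6386), a log2 ratio of -12.10. The gene was thus abundantly read in the denominator library and had few reads in the numerator library. Of the 11212 genes with a mean of at least 20, 0 had a lower log2 ratio with a pseudocount of 1, and 1 had a lower one with a pseudocount of 0.5. That gene, Was, had 0 numerator reads, so its log2 ratio is set by the pseudocount and its place beside Abcc9 cannot be settled.

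Kcnj8, the pore Kir6.1, had 6 numerator and 5457 denominator reads. In CPM these are 0.0563 (interval 0.0207 to 0.123) in the numerator and 52.1 (interval 50.7 to 53.5) in the denominator library. Its level was 926-fold lower in the numerator library (interval 425 to 2525), a log2 ratio of -9.63. It was low in the same library as its partner, and 5 genes had a lower log2 ratio with a pseudocount of 1, against 11 with a pseudocount of 0.5, of which 7 had 0 numerator reads. Abcc9 and Kcnj8 reached the minimum mean only through the denominator library, so members above it had to differ; of all 11212 genes, 12.7% had a numerator level lower by 2-fold or more and 13.9% a higher one. From RNA of pooled cells, fewer cells of a type and less RNA per cell cannot be told apart.

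Abcc8, the receptor SUR1, is listed at 0, so it had 0 numerator and 0 denominator reads. A count of 0 allows up to 3 reads, which is 0.0281 CPM in the numerator and 0.0286 CPM in the denominator library. Kcnj11, the pore Kir6.2, had 0 numerator and 2 denominator reads. Both genes lay at or under this limit in both libraries, so no fold is given, and a difference between the libraries was not detectable at this depth. The SUR1 and Kir6.2 pair was therefore not read above the limit in either culture.

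**Figure D1:**
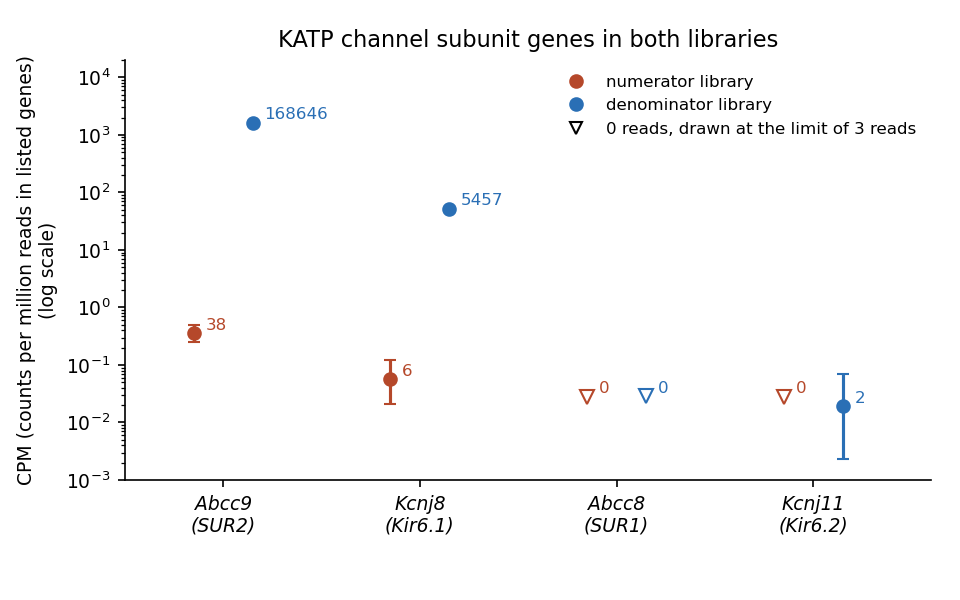
CPM in listed genes (log axis) of the 4 KATP channel subunit genes in the numerator and denominator library, with 95% counting intervals; printed numbers are reads and open triangles mark 0 reads, drawn at the limit of 3 reads. Abcc9 and Kcnj8 stand high in the denominator library with 168646 and 5457 reads, and Abcc8 and Kcnj11 have at most 2 reads in either library.

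Receptor and pore assemble into 1 channel, so their reads were also set against each other within each library. There were 6.33 Abcc9 reads per Kcnj8 read in the numerator library (interval 2.66 to 18.3) and 30.9 in the denominator library (interval 30.1 to 31.8). The balance was 4.88 times as high in the denominator library, which describes these 2 libraries and genes chosen on their reads, and has no replicate check. The lengths of the transcripts enter both libraries alike, so they cancel between libraries but not within 1; neither number gives receptors per pore. The numerator value rests on 6 Kcnj8 reads. For Abcc8 and Kcnj11 no balance can be given.

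Among genes with a mean of at least 20, the 5 genes nearest in log2 ratio with a pseudocount of 1 were listed for both. For Abcc9 they were Was, Cml5, Tril, Sim2 and Cdh5. Was, which steers actin assembly in blood cells, had 0 numerator and 4194 denominator reads (at least 1423-fold lower), and Cml5 had 0 and 1103 (at least 374-fold lower). Tril had 15 and 16250 reads, and its log2 ratio lay 2.09 above that of Abcc9. For Kcnj8 the nearest was Cdh5, the cadherin of endothelial junctions, with 2 reads in the numerator and 2166 in the denominator library and a log2 ratio 0.11 above that of Kcnj8. The transcription factor gene Sim2 had 3 and 3985 reads and differed from it by -0.35 on the log2 scale. The others had 0 numerator reads: the homeobox genes Hmx2 (698 denominator reads) and En2 (653), and MGC114427 (627). For the genes at 0 numerator reads, which 21 of the 11212 genes were, the pseudocount sets the log2 ratio, so their likeness to Abcc9 or Kcnj8 is not measured. The lists rest on 1 ratio.

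**Figure D2:**
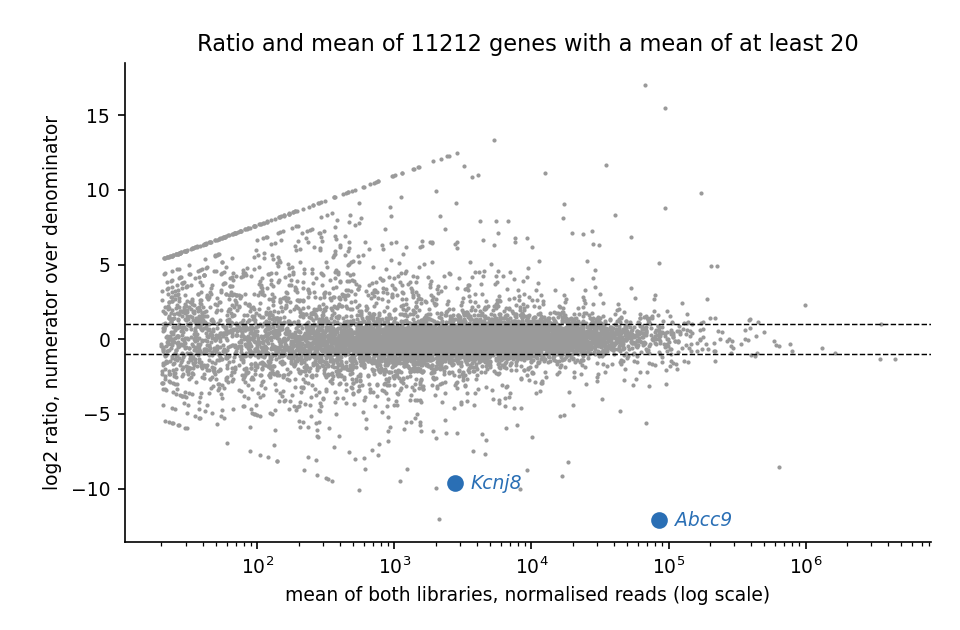
Log2 ratio of the numerator over the denominator library (vertical axis) against the mean of both libraries in normalised reads (log axis) for 11212 genes with a mean of at least 20; dashed lines mark 2-fold. With the pseudocount of 1 Abcc9 lies at -12.10 and Kcnj8 at -9.63; genes with 0 numerator reads, such as Was, are placed by the pseudocount.

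The authors' deposited table ranks the receptor and the pore the other way round. Its shrunken log2 fold change was -0.63 with a standard error of 0.957 for Abcc9 and -2.71 with a standard error of 1.24 for Kcnj8. Of the 11212 genes, 2066 had a lower fold change than Abcc9 in the authors' deposited table, and 62 had a lower one than Kcnj8. The DESeq2 p-values in the authors' deposited table were 0.507 for Abcc9 and 0.0291 for Kcnj8, with an adjusted p of 0.999 for both; they come from 1 library per group. For Kcnj11 the authors' deposited table gives a fold change of -0.07 and an adjusted p of 0.999.

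The fit that met these deposited values had a dispersion of 6.76 for Abcc9 and 1.56 for Kcnj8. Only 26 of the 11212 genes had a dispersion above that of Abcc9, and 630 one above that of Kcnj8. These dispersions were solved from the recovered reads and the deposited fold change. A wide ratio of reads with a small deposited fold change gives a large one by construction. The cause of the reversed order was not tested. The mean of Abcc9 allows 32 pairs of whole reads. The pair of 38 and 168646 reads missed the deposited standard error by 2.3e-05, and the next best pair, 5457 and 163324 reads, missed it by 0.0308. The mean of Kcnj8 allows 1 other pair, 5425 and 135 reads, whose ratio has the opposite sign to the deposited fold change.

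**Figure D3:**
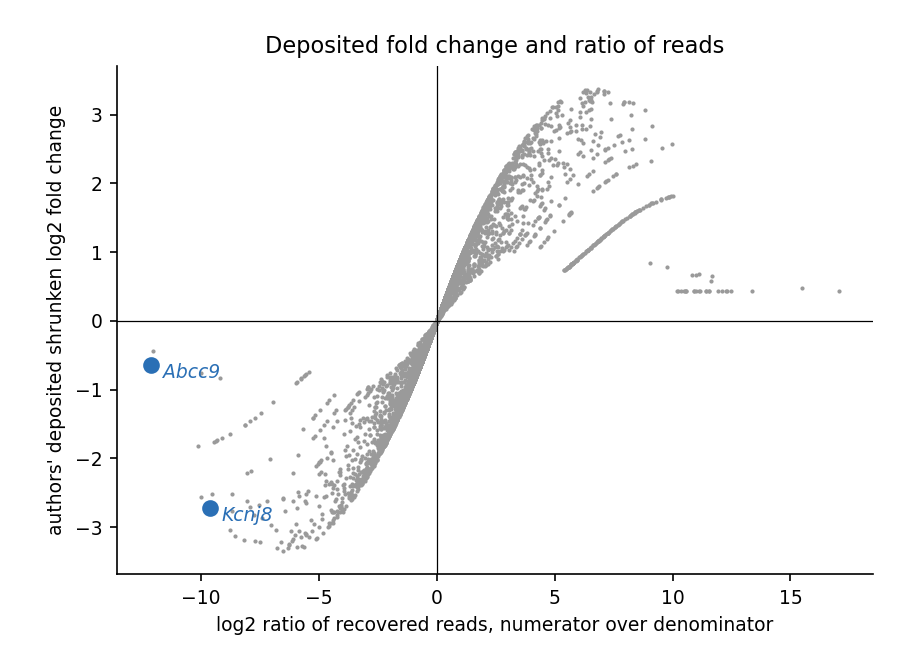
The authors' deposited shrunken log2 fold change (vertical axis) against the log2 ratio of the recovered reads, numerator over denominator (horizontal axis), for genes with a mean of at least 20. Abcc9 lies at -12.10 and -0.63, and Kcnj8 at -9.63 and -2.71, so the gene with the lower ratio of reads has the deposited fold change nearer to 0.

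The genes around both pairs were compared because the genes of a pair are neighbours. Of the 20 nearest measured genes around Kcnj8 and Abcc9, 17 had a mean of at least 20; 4 of these were lower by 2-fold or more in the numerator library, 0 were higher and 13 lay within 2-fold. The share lower, 23.5%, stands beside 12.7% over all genes and 22% over chromosome 4. Their median log2 ratio was -0.32 and their lowest -2.28. Ldhb, a lactate dehydrogenase subunit and the nearest gene on the Kcnj8 side, had 2310 numerator and 7507 denominator reads (3.31-fold lower). Pde3a, a phosphodiesterase that breaks down cyclic AMP, had 1989 and 9480 reads (4.85-fold lower). Sspn, which encodes sarcospan of the dystrophin complex, was 4.65-fold lower and Plekha5 2.75-fold lower. Cmas, the nearest gene on the Abcc9 side, had 6360 and 7779 reads, within 2-fold. The log2 ratios of the channel genes, -9.63 and -12.10, lay under those of all 17 measured neighbours. As the channel genes were chosen on their reads, almost any set of neighbours would lie above them.

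Chromosome 4 as a whole lay below the other chromosomes in the numerator library, with chromosome 7. The median log2 ratio of 614 chromosome 4 genes was -0.38, against 0.01 over all genes; 22% were lower by 2-fold or more and 9.45% higher, against 12.7% and 13.9% over all genes. Relative to the median of its chromosome, the log2 ratio was -11.72 for Abcc9 and -9.25 for Kcnj8. Around Kcnj11 and Abcc8 on chromosome 1, 15 of 20 neighbours had a mean of at least 20, with 3 higher, 1 lower (6.67%) and a median of 0.19. Over chromosome 1, 12.3% were higher and 14.2% lower. Nomo1, the nearest on the Kcnj11 side, had 44950 numerator and 16150 denominator reads (2.73-fold higher). Neighbours were taken only from genes with reads, so they cannot show whether the surroundings of the SUR1 and Kir6.2 genes were read.

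**Figure D4:**
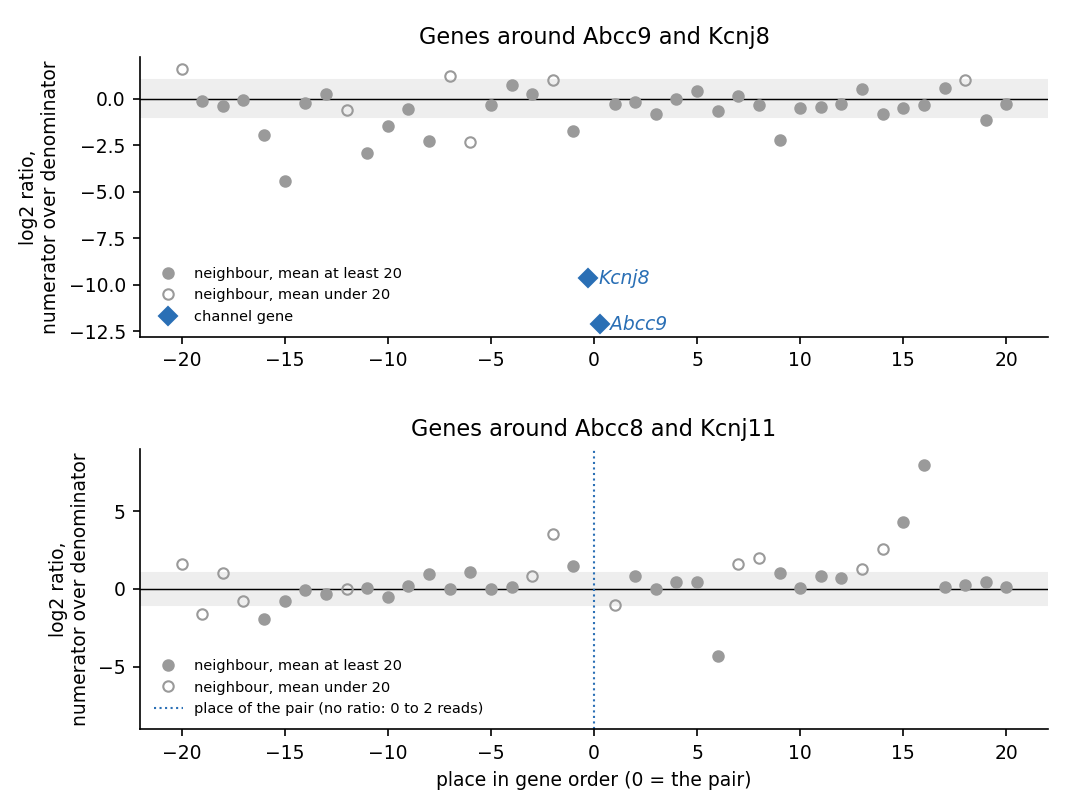
Log2 ratio of the numerator over the denominator library for the 20 nearest measured genes on each side of Kcnj8 and Abcc9 (upper panel) and of Kcnj11 and Abcc8 (lower panel), in RefSeq gene order; grey bands mark 2-fold and open points a mean under 20. Kcnj8 and Abcc9 lie at -9.63 and -12.10, while the lowest of the other genes in the upper panel lies at -4.41.

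Other measured inward rectifier and ABCC genes had log2 ratios down to -5.68 among the pores and -0.99 among the transporters. Abcc9 and Kcnj8 were chosen on their reads, so almost any list would lie above them. Of 13 other inward rectifier pores, 4 are listed at 0, 6 had a mean under 20 and 3 were measured, with a median of -0.51. Of these 3, 1 was higher (33.3%, against 13.9% over all genes) and 1 lower (33.3%, against 12.7%). Each of these called pores reached the minimum mean of 20 only through the library where it is high, so its call was fixed once it passed. Kcnj2, a strong inward rectifier, had 106 numerator and 0 denominator reads (at least 34.7-fold higher against 3 reads per library). Kcnj4 had 1 read and 100 reads (102-fold lower, interval 17.9 to 4061). Of 8 other members of the ABCC family, 5 were measured, with 1 higher (20%), 0 lower and a median of -0.43. Abcc5, an exporter of cyclic nucleotides, had 5260 numerator and 2027 denominator reads (2.55-fold higher). Abcc3, with 1362 and 2665 reads, stayed just within 2-fold.

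Over all 11212 genes, 13.9% were higher and 12.7% lower by 2-fold or more, and each list is set beside these shares. A member with few or 0 reads in 1 library, such as Cav3, Kcnk3 or Kcnn4, reached the minimum mean only through the other. Its call was fixed once it passed, here and in the lists below. Kinases, anchors and other proteins set the activity of KATP channels. Of 15 measured kinases, anchors and other partners, 4 were higher, 2 lower and 9 within 2-fold, with a median of 0.26. The share lower, 13.3%, is near that over all genes, and the share higher was 26.7%. Cav3, a caveolin of muscle membranes, had 1545 numerator and 0 denominator reads (at least 506-fold higher). Cav1, the widespread caveolin, had 150324 and 117297 reads, within 2-fold. Prkar2b, a regulatory subunit of protein kinase A, had 615 and 9847 reads (16.3-fold lower), while Prkar1b, another, had 354 and 33 (10.5-fold higher). The catalytic subunit gene Prkaca had 10755 and 10254 reads and did not pass 2-fold.

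Relaxant receptors and the enzymes of cyclic nucleotide signalling act upstream of these channels in smooth muscle. Of 15 measured, 6 were lower, 3 higher and 6 within 2-fold, with a median of -0.43. These are 40% lower and 20% higher, against 12.7% and 13.9% over all genes. Ramp1, the partner that makes Calcrl a receptor for the relaxant peptide CGRP, had 43 numerator and 9032 denominator reads (214-fold lower, interval 159 to 296). Calcrl itself had 2531 and 9217 reads and was 3.71-fold lower. Ptgir, the prostacyclin receptor, was 16.6-fold lower, with 149 and 2430 reads. Ptger2, a receptor for prostaglandin E, was at least 125-fold higher, with 383 and 0 reads.

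Downstream, 8 voltage-gated calcium channel genes were measured, with 1 higher (12.5%, against 13.9% over all genes), 2 lower (25%, against 12.7%) and a median of -0.43. Cacnb2, an auxiliary subunit, had 2281 numerator and 0 denominator reads (at least 747-fold higher). Cacna1h, a T-type pore, had 45 and 231 reads (5.23-fold lower), and Cacnb4 14 and 41 (2.98-fold lower). Cacna1c, the L-type pore of smooth muscle, had 4969 and 6350 reads and stayed within 2-fold. Of 13 other measured potassium channel genes of smooth muscle, 6 were higher (46.2%), 5 lower (38.5%) and 2 within 2-fold, with a median of -0.66. Kcnk3, a background channel, had 2265 numerator and 2 denominator reads (1112-fold higher, interval 308 to 9190). Kcnn4, a calcium-activated channel, was at least 156-fold higher, with 478 and 0 reads, and Kcnh1 at least 37.6-fold higher, with 115 and 0. The other potassium channel genes thus included some higher in each library, and Kcnmb1, with 964 and 5382 reads (5.68-fold lower), was the lowest of them.

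Abcc9 and Kcnj8 are also widely used as markers of pericytes, the contractile cells of small vessels, so other such markers were counted. Of 15 pericyte and mural markers without them, 9 were measured, with 6 lower, 1 higher, 2 within 2-fold and a median of -1.62. These are 66.7% lower and 11.1% higher, beside 12.7% and 13.9% over all genes. Their summed reads were 197092 in the numerator and 426862 in the denominator library. Pdgfrb gave 37430 and 113127 of these (3.08-fold lower) and Mcam 12570 and 56396 (4.57-fold lower). Anpep, the only one higher, had 1935 and 930. Notch3, a receptor of mural cells, had 219 and 19811 reads (92.1-fold lower), Ndufa4l2 3018 and 84131 (28.4-fold lower) and Gja4, a vascular connexin, 222 and 5213 (23.9-fold lower). Cspg4, with 31833 and 28088 reads, and Des, with 108292 and 114970, stayed within 2-fold. Rgs5, a defining pericyte gene, had 22 numerator and 0 denominator reads, and Vtn is listed at 0. Like Rgs5, the markers Rgs4, Higd1b, Heyl and Steap4 had a mean under 20. The part of pericytes in the ratios of Abcc9 and Kcnj8 was not tested.

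Endothelial markers had 4 of 7 measured members lower (57.1%, against 12.7% over all genes) and 1 higher (14.3%, against 13.9%). Their median was -2.21, with summed reads of 15394 in the numerator and 19758 in the denominator library. Besides Cdh5, Esam had 73 and 5582 reads (77.9-fold lower), and Pecam1 22 and 189 (8.75-fold lower). Tek, an angiopoietin receptor, had 553 and 67 reads (8.11-fold higher), and Flt1, a receptor for vascular growth factors, had 12375 and 8696, within 2-fold and most of the summed reads in the numerator library. Kdr, Emcn and Cldn5 are listed at 0. Their part in the result was not tested either. Of 8 markers of insulin-secreting cells, where SUR1 and Kir6.2 are best known, 6 are listed at 0, among them Ins1 and Ins2. Nkx6-1 had 0 numerator and 1 denominator reads. Markers of cardiac and skeletal muscle, where SUR2 pairs with Kir6.2, had 4 measured members with a median of -0.74. Of these, 1 was higher (25%, against 13.9% over all genes) and 1 lower (25%, against 12.7%). These were Tnnt2 (3.46-fold higher) and Tnnt3 (9.48-fold lower), while Myl2, Nppa and Ryr2 are listed at 0.

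**Figure D5:**
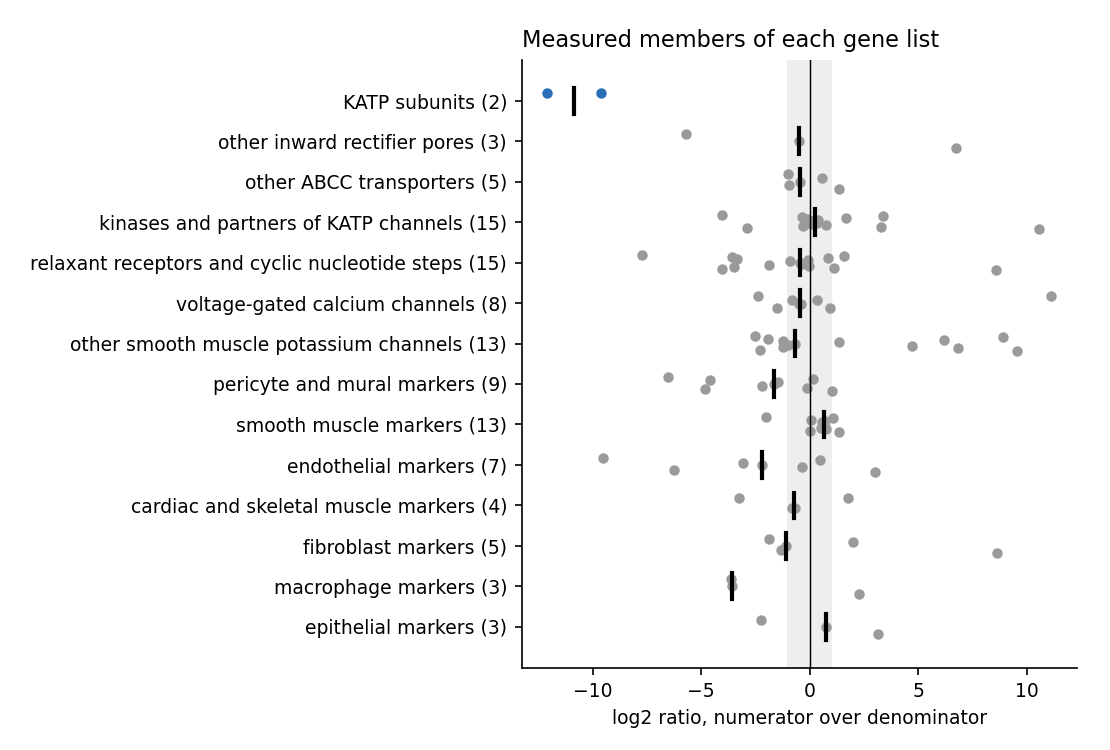
Log2 ratio of the numerator over the denominator library for each list member with a mean of at least 20 (points), with the list's median (black bar) and the number of such members in brackets; the grey band marks 2-fold. The 2 measured KATP subunits lie at -12.10 and -9.63, and the medians of the other lists lie between -3.58 and 0.76.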

How the data were processed

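Total RNA of 2 pooled samples of rat myometrial progenitor cells was sequenced as single reads of 36 bp, per the labels' protocols. The submitters' processing notes name TopHat, FastQC, SAMtools, featureCounts, DESeq2, rn4 and rn5; versions, order, settings and use of strand are not stated there. Per the file headers, the deposited table of 17327 genes gives a mean, which is a signal the authors made by averaging size-factor-scaled reads over both libraries. It also gives the authors' shrunken log2 fold change with its standard error, a score (their quotient) and a p-value with its adjusted form.

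Reads per library were recovered from the deposited means. A numerator read adds 0.496 to a mean and a denominator read 0.505, from size factors of 1.01 and 0.991. These steps stand in a ratio of whole numbers, so 5419 more numerator reads and 5322 fewer denominator reads leave a mean unchanged. Of 13221 genes above 0, 9307 (70.4%) allowed 1 pair. In 3812 genes the deposited standard error chose the pair, through a shrunken negative binomial fit with the deposited fold change (largest miss 3.4e-05). In 102 genes with a deposited fold change under 0.02 in size the pair with the nearest ratio was taken. In 4839 genes with 1 possible pair, whose reads are fixed by the mean alone, the same fit met the deposited standard error to within 2.38e-05. The strength of shrinkage in the fit, 1 value for all genes, was itself chosen to make this miss small in genes with 1 pair. The match is thus not fully independent. Genes with a mean as large as that of Abcc9 allow several pairs and are not among them.

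Log2 ratios are of size-factor-scaled reads plus a pseudocount of 1. A gene was called when its ratio was at least 2-fold, its mean at least 20 and its 95% exact Clopper-Pearson interval excluded 1. Reads lack molecular identifiers and are not independent molecules, so intervals and the limit of 3 reads behind a count of 0 cover counting error only. A fold written as at least uses that limit, which is one-sided and so lies above the lower end of the two-sided interval. With 1 library per group no test was run. The design had assumed values per library; its rule of size was kept. All 4 subunits were named, and, of each list, called members with the 3 largest ratios in size and members on which a result turns; also the 5 genes nearest in ratio to each subunit with a mean of at least 20 and, of the 10 measured neighbours on each side, those called or nearest. Members and lists were chosen with earlier results of these data known. Of 160 other list symbols, 157 were matched and 130 had a value above 0. Gene order and promoters came from RefSeq's GRCr8 annotation, which placed 16293 of the genes. Python 3.11.15, numpy 2.4.6, pandas 2.3.3 and scipy 1.17.1 were used.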

Additional observations from a re-analysis of the deposited data

How the results depend on the processing

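Under pseudocounts of 0.5 and 5, total reads as scaling, genes with a mean of at least 100 centred at 0, or the median of chromosome 4 as the zero, the log2 ratio stayed between -12.12 and -11.72 for Abcc9 and between -9.74 and -8.98 for Kcnj8, within their counting intervals. With the authors' deposited shrunken fold change it was -0.63 for Abcc9 and -2.71 for Kcnj8, so Abcc9 did not pass 2-fold there. With genes that allow 1 pair of reads only, neither could be called, since both means allow several. With a fold of 4 in place of 2, 838 genes were higher and 573 lower, against 1560 and 1429. The median around Kcnj8 and Abcc9 was -0.34 with 20 genes on each side and -0.32 with a mean of at least 100; around Kcnj11 and Abcc8 it was 0.16 in both. The receptor to pore balance cannot change with the scaling, since the size factor of a library cancels within it. Of 103 measured genes in the other 14 lists, 59 passed 2-fold, beside 13.9% higher and 12.7% lower of all 11212 genes. The lists were chosen with earlier results of these data known. Under the alternatives that keep these 103 genes, 40 to 59 did. With a fold of 4 it was 40, beside 838 higher and 573 lower of 11212 over all genes. With the authors' deposited fold change it was 52, beside 1177 and 1096. With total reads it was 59, beside 1564 and 1428. A pseudocount of 5 also gave 59, beside 1540 and 1408. With no minimum mean 67 of 130 did, beside 2000 higher and 1646 lower of 13221 over all genes. With a mean of at least 100 it was 49 of 86, beside 1179 and 1181 of 10275. With genes that allow 1 pair only it was 42 of 64, beside 1122 and 1108 of 7298. Of 210 recomputed counts of single lists, the KATP subunits among the 15 lists, 33 moved by more than 1.5 times. No paired analysis was possible because each group has 1 library and no test was run. For Abcc8 and Kcnj11 depth sets the limit: no difference can be seen under 3 reads per library.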

Other observations

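Other cell type lists had 3 to 5 measured members each, with members higher and lower in each list. Over all genes 13.9% were higher and 12.7% lower. Of 5 fibroblast markers, 2 were higher by 2-fold or more and 3 lower in the numerator library, with a median of -1.10. Tcf21, a mesenchymal transcription factor, had 394 numerator and 0 denominator reads (at least 129-fold higher). Lum, a matrix proteoglycan, had 101 and 24 (4.13-fold higher), and Dcn, another, had 219 and 782 (3.64-fold lower). Col1a1, with 2579682 and 6284823 reads, was 2.48-fold lower, and Pdgfra, with 4245 and 8951, was 2.15-fold lower. Of 3 measured macrophage markers 2 were lower (Csf1r 12.5-fold and Lyz2 14.7-fold) and 1 higher (Cd68 4.93-fold), and Ptprc and Adgre1 are listed at 0. Of 3 measured epithelial markers, the keratin gene Krt18 had 553 and 61 reads (8.90-fold higher), Krt19 11 and 55 (5.09-fold lower) and Krt8 stayed within 2-fold. The soluble guanylate cyclase genes, whose products work as a pair in relaxation by nitric oxide, were read unequally: Gucy1b3 had 736 numerator and 7340 denominator reads (10.2-fold lower), and Gucy1a3 had 3 reads in each.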
